A study of Mus musculus with 6 samples.

Results

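*Adamts1* and *Unc5b* are vascular regulators and were 2 of the 312 genes of a table that compares mouse adipose libraries of infancy with those of adulthood. They were selected by name, with their higher level at P6 already known from the same libraries, so the difference between the ages is given for them as a description and without a test. The libraries, 3 per age, are of wild-type C57BL/6 mice aged 6 days (P6, infant) or 56 days (P56, adult) after birth, and their labels name no transgene or treatment. The labels call the material adipose tissue macrophages, while the methods of the study describe sequenced depots of inguinal adipose tissue (iAT). No source states whether each library was from a separate animal, so p-values measure the spread between libraries only.

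ADAMTS1 is a secreted metalloproteinase that carries thrombospondin type 1 repeats and cleaves matrix proteins, among them the proteoglycans versican and aggrecan. It is known as an inhibitor of vessel growth and as a protease of the remodelling extracellular matrix. UNC5B is a cell surface receptor for netrins, known from arteries and from the tip cells of sprouting capillaries, where it mediates repulsion. Its extracellular part also carries thrombospondin type 1 repeats and its intracellular part ends in a death domain. Adipose tissue grows together with its capillary network, and both matrix proteolysis and vessel guidance act in that growth.

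*Adamts1* (gene ID 11504) lies on chromosome 16 and *Unc5b* (gene ID 107449) on chromosome 10, both on the minus strand. Their promoters are printed because both genes were higher at P6 and lie on different chromosomes. Each sequence is the RefSeq promoter of mouse assembly GRCm38.p6, from 250 bases before to 50 bases after the transcription start, at chr16:85803064-85803363 for *Adamts1* and at chr10:60831532-60831831 for *Unc5b*. Both are written 5′ to 3′ on the gene's strand, and the capitals mark matches to the motifs that follow.
Adamts1: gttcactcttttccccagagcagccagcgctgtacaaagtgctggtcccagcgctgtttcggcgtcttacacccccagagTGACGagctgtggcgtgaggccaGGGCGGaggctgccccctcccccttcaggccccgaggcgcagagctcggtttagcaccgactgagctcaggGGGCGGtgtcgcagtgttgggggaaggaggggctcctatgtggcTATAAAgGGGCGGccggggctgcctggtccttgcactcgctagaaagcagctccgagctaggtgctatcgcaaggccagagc
Unc5b: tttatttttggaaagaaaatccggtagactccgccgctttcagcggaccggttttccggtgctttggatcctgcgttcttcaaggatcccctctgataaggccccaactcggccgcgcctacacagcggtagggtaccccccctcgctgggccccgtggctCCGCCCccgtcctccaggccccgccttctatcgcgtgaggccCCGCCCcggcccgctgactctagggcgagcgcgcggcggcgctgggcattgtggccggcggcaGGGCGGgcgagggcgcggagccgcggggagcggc

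Both promoters were rich in G, C and CpG. The *Adamts1* promoter held 64.7% G or C and 18 CpG dinucleotides, and 81.1% of the 32851 RefSeq promoters had a lower G and C share. For *Unc5b* the values were 69.7% and 36, and 89.9% of promoters had a lower share. The medians over all promoters were 52.7% and 7 CpG.

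The GC box letters GGGCGG, which SP1 family factors are known to bind, occurred 3 times in each promoter, and 35.7% of all promoters held them at least once. In *Adamts1* they began at −147, −76 and −25, counted from the start base as +1, and in *Unc5b* at −89 and −47 on the opposite strand and at +17. The TATA box letters TATAAA were at −32 in *Adamts1* and were not in the *Unc5b* window (13.6% of all promoters). The short cAMP response site TGACG was at −170 in *Adamts1* and not in *Unc5b* (20.8% of all promoters). Neither window held CCAAT (37.4% of all promoters), the hypoxia response core ACGTG (19.6%), the AP-1 site TGANTCA (7.81%), the TEAD site CATTCC (14.7%) or a CArG box (1.63%). All motifs were searched on both strands, and a match is only a match of letters.

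In the GENCODE M21 annotation the longest coding transcript of *Adamts1* has 4884 bases in 9 exons, of which 2904 are coding. For *Unc5b* it has 5869 bases in 17 exons, of which 2835 are coding. The median over the listed genes that matched the annotation was 6404 bases, so both are somewhat shorter than the typical listed gene. The nearest coding genes of *Adamts1* are *Cyyr1* and *Adamts5*, and those of *Unc5b* are *Slc29a3* and *Pcbd1*. None of these neighbours was among the 312 genes.

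Estimated counts over the listed genes summed to 782852 to 816309 in the P6 libraries and to 497044 to 671747 in the P56 libraries. These totals cover between 2.30% and 2.69% of each library's TPM (the abundance of a transcript after scaling by its length to a fixed library total) and are therefore not library depths. Relative depth was recovered from the counts and the FPKM (fragments scaled by transcript length and depth) of 196 genes, and was 1.09 to 1.16 at P6 and 0.795 to 0.937 at P56. Depth-scaled counts are counts divided by this value. P56 replicate 3 was the shallowest library and stood furthest from the other libraries of its age, with a chi-square per gene of 44.9 and 22.6 against them, while pairs of P6 libraries gave 8.68 to 9.83.

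*Adamts1* was an abundant transcript in the table. Its level was 407, 399 and 385 TPM in the P6 libraries and 285, 255 and 198 TPM in the P56 libraries. The ages did not overlap, and P56 replicate 3 was the lowest library. The means were 397 ± 11.0 TPM (SD, n = 3) at P6 and 246 ± 44.3 TPM at P56, a ratio of 1.61. Ranked by mean TPM, *Adamts1* was 14th of the 312 genes at P6 and 20th at P56.

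*Unc5b* was expressed at a far lower level. It had 25.7, 25.4 and 22.3 TPM in the P6 libraries and 12.1, 11.1 and 9.02 TPM in the P56 libraries. Again each P6 library lay above each P56 library, as was so in TPM for 84 of the 312 genes. Replicate 3 was the lowest at either age. The means were 24.5 ± 1.87 TPM at P6 and 10.7 ± 1.55 TPM at P56, a ratio of 2.28. Its rank by mean TPM was 136th at P6 and 223rd at P56, and the medians over the listed genes were 19.5 and 22.1 TPM, so that *Unc5b* was above the median of the table in infancy and below it in adulthood.

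The counts behind these levels were 16302, 15636 and 16391 for *Adamts1* at P6 and 8601, 7401 and 5468 at P56. For *Unc5b* they were 1239, 1199 and 1144 at P6 and 438, 387 and 300 at P56. The lowest, 300 in P56 replicate 3, has an exact 95% Poisson interval of 267.0 to 335.9, which covers counting error only. All of these counts were whole numbers.

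After depth scaling, *Adamts1* had 14471, 14319 and 14108 counts at P6 and 9179.8, 8332 and 6882 at P56. The spread was narrow at P6 and wide at P56, with coefficients of variation of 1.28% and 14.3%. Counting alone gives 0.78% to 0.80% in the P6 libraries and 1.08% to 1.35% in the P56 libraries. *Unc5b* had 1099.8, 1098 and 985 depth-scaled counts at P6 and 467, 436 and 378 at P56. Its coefficients of variation were 6.22% and 10.7%, against 2.84% to 2.96% from counting at P6 and 4.78% to 5.77% at P56. The lowest P6 library was 1.54 times the highest P56 library for *Adamts1* and 2.11 times for *Unc5b*.

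**Figure D1:**
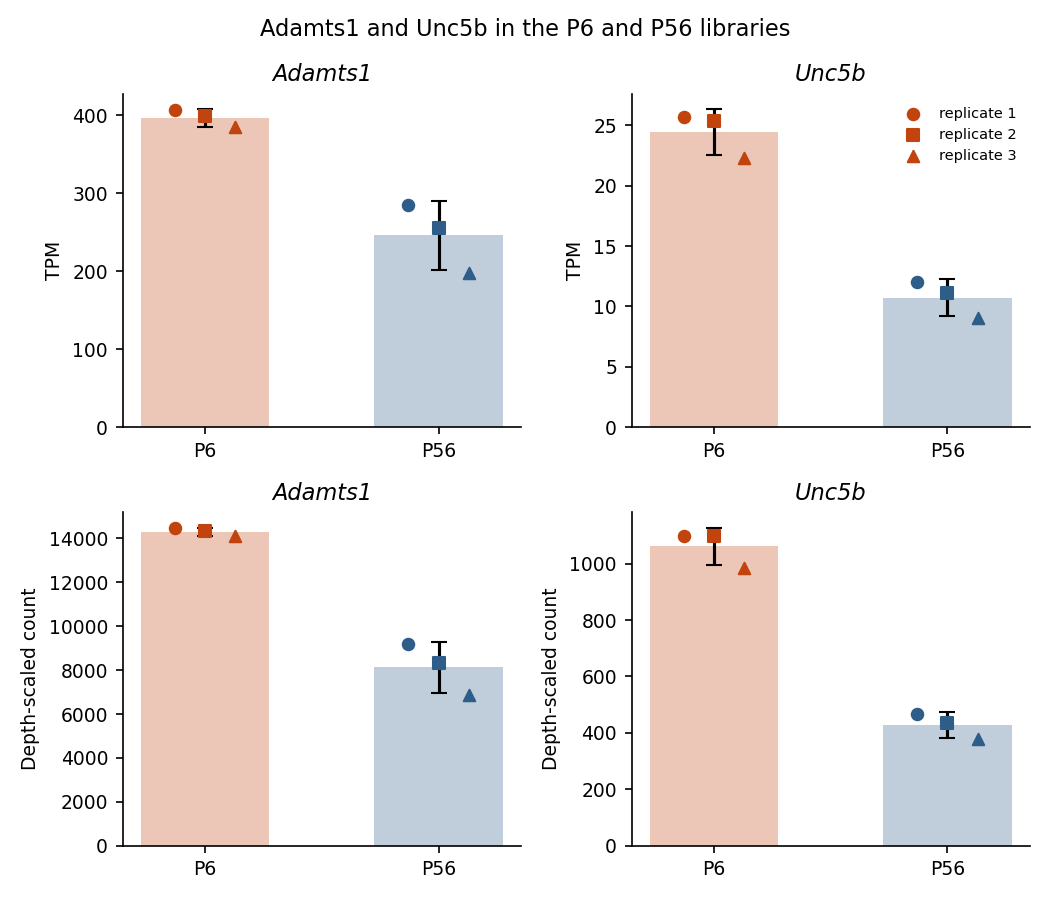
TPM (upper row) and depth-scaled counts (lower row) of *Adamts1* (left) and *Unc5b* (right), with bars for the mean, error bars for the SD (n = 3) and 1 symbol per library. All P6 symbols sit above all P56 symbols in each panel, with mean levels of 397 and 246 TPM for *Adamts1* and 24.5 and 10.7 TPM for *Unc5b*.

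In depth-scaled counts the libraries of both genes were thus fully separated by age, as were those of 33.3% of the 312 genes in the same direction. Since the pair was chosen with this difference known, nothing is read from that count. The fitted log2 fold change of P6 over P56 was 0.81 (SE 0.10) for *Adamts1* and 1.31 (SE 0.11) for *Unc5b*, which correspond to 1.76-fold and 2.48-fold. By size of the log2 fold change toward P6 they ranked 46th and 22nd of the 310 genes tested. The median log2 fold change over those genes was −0.03.

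The fold depended on the unit. The ratios of the means were 1.76 in FPKM and 1.61 in TPM for *Adamts1*, and 2.48 and 2.28 for *Unc5b*. The median ratio of TPM to FPKM over the listed genes was 1.99 to 2.05 in the P6 libraries and 2.10 to 2.27 in the P56 libraries, so the TPM scale shifts each gene of the table by the same factor within a library. Counts without any scaling gave ratios of 2.25 and 3.18, which include the deeper sequencing of the P6 libraries. In bulk RNA, fewer cells of a type and less RNA per cell cannot be told apart, and this holds for each level given here.

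P56 replicate 3 was lowest for both genes on each of these scales. On the log2 scale of depth-scaled counts it lay at −0.35 for *Adamts1* and −0.26 for *Unc5b* relative to the mean of the other P56 libraries, where the median tested gene lay at −0.18. Without it the log2 fold changes were 0.71 and 1.23, and without P56 replicate 1 they were 0.91 and 1.38.

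**Figure D2:**
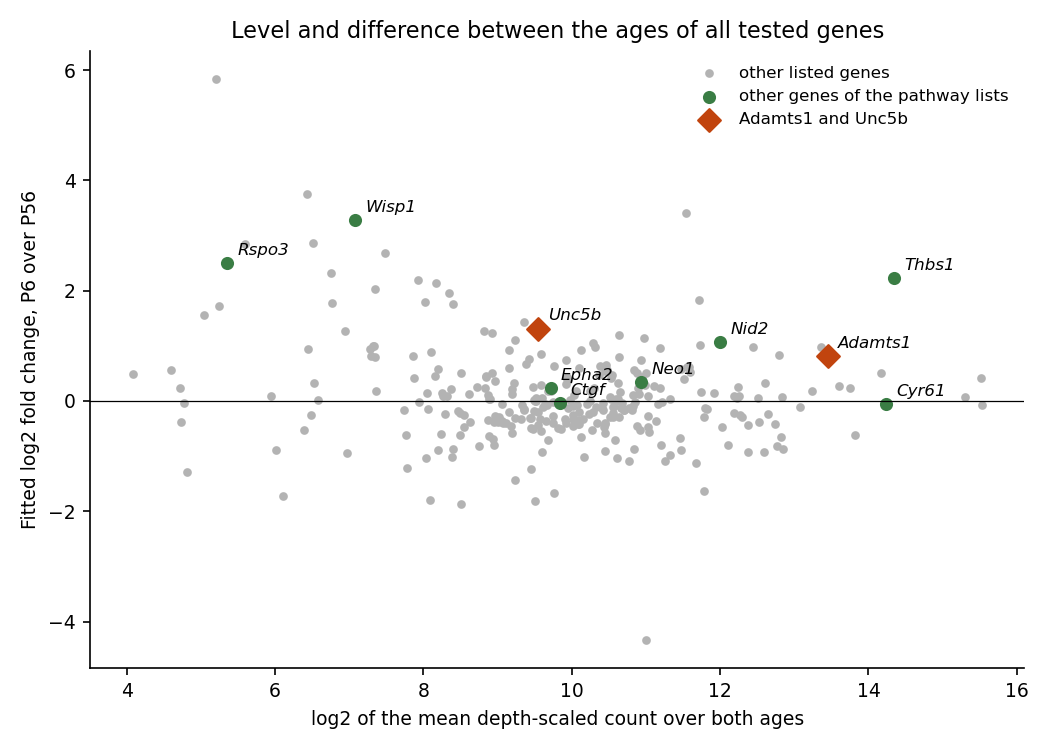
Fitted log2 fold change of P6 over P56 (vertical) against the log2 of the mean depth-scaled count (horizontal) for the 310 tested genes. *Adamts1* and *Unc5b* are diamonds and the other genes of the pathway lists are green. *Adamts1* lies among the most abundant genes with a log2 fold change of 0.81, and *Unc5b* lies higher, at 1.31, in the middle of the abundance range.

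*Unc5b* was further from its adult level than *Adamts1*, so the proportion of the transcripts differed between the ages. Per TPM, the libraries held 15.8, 15.7 and 17.3 *Adamts1* transcripts for each *Unc5b* transcript at P6 and 23.6, 23.0 and 21.9 at P56. These ratios need no depth scaling, because the depth of a library cancels within it. All P56 ratios were above all P6 ratios, with means of 22.9 ± 0.865 and 16.3 ± 0.860 (SD, n = 3), a factor of 1.41. This factor follows from the fitted log2 fold changes of the pair, which differ by 0.50. How many other pairs of listed genes separate by age in this way was not counted, so nothing is read from the separation. P56 replicate 3, the lowest library for each gene, had the lowest ratio of its age but stayed above the P6 range.

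**Figure D3:**
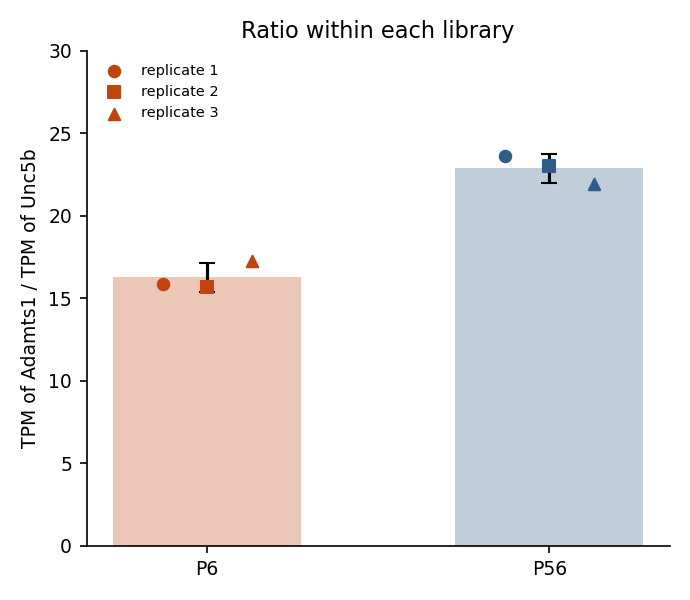
Ratio of *Adamts1* TPM to *Unc5b* TPM within each library (vertical), by age, with bars for the mean, error bars for the SD (n = 3) and 1 symbol per library. The P6 libraries sit between 15.7 and 17.3 and the P56 libraries between 21.9 and 23.6.

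The genes whose profile over the 6 libraries was nearest to that of *Adamts1* included *Myh10*, *Fat1*, *Samd4* and *Igf1r*. Nearness was the root mean square difference of log2 depth-scaled counts, each gene centred on its own mean, and it was 0.0463 for *Myh10*, which encodes a nonmuscle myosin heavy chain, and 0.0782 for *Igf1r*, the receptor of insulin-like growth factor 1. The median over the tested genes was 0.482. Their log2 fold changes ran from 0.74 (*Myh10*) to 0.92 (*Samd4* and *Igf1r*), but these 4 were far less abundant than *Adamts1*, with mean levels at P6 between 14.6 TPM for *Samd4* and 42.2 TPM for *Myh10*.

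Nearest to *Unc5b* were *Paqr8*, *Tmx4*, *Dpysl3*, *S1pr3* and *Cemip2*, at distances from 0.0633 for *Paqr8* to 0.109 for *Cemip2*, with a median over genes of 0.702. *S1pr3* is a receptor for sphingosine 1-phosphate and *Cemip2* encodes a cell surface protein linked to hyaluronan breakdown. Their log2 fold changes ran from 1.11 (*Cemip2*) to 1.28 (*Paqr8*). Among them *Dpysl3* and *S1pr3* were more abundant than *Unc5b*, at 68.5 and 67.0 TPM at P6 and 34.0 and 31.7 TPM at P56. In the order of nearness to *Adamts1*, *Unc5b* stood 56th with a distance of 0.251, and *Adamts1* stood 23rd in the order of nearness to *Unc5b*. These genes are described for their profiles alone, and the nearest were taken because they lie close.

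**Figure D4:**
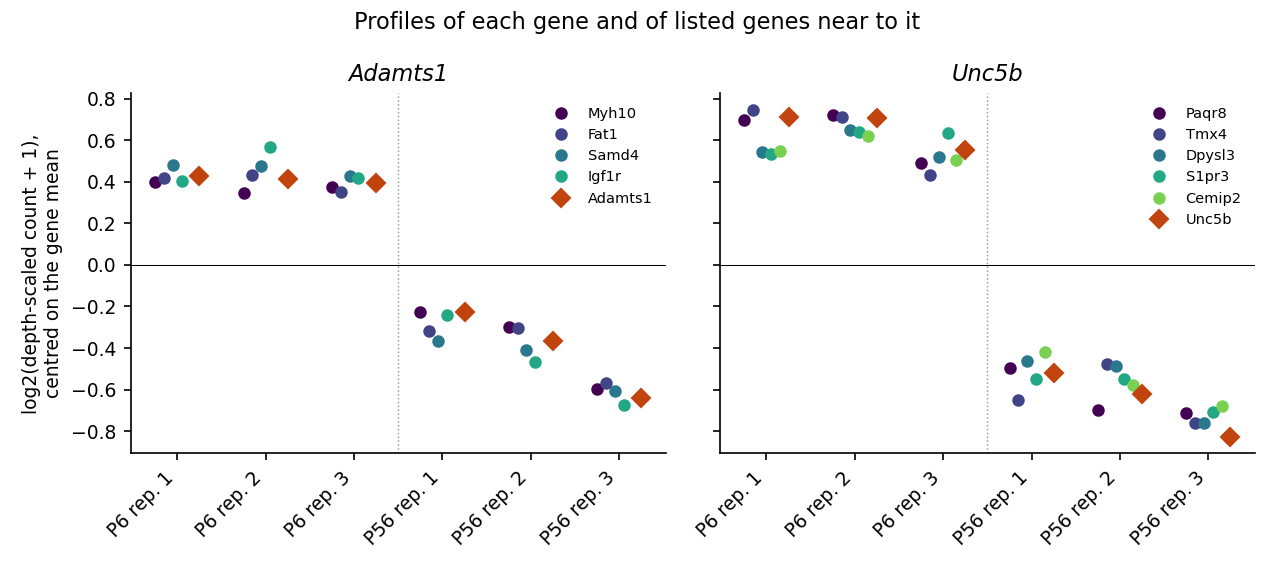
Centred log2 depth-scaled counts (vertical) of *Adamts1* and *Unc5b* (diamonds) and of the genes named as nearest to each (circles, 4 and 5 genes) in the 6 libraries (horizontal). All genes shown are above their mean in each P6 library and below it in each P56 library, and their distances are 0.0463 to 0.0782 for *Adamts1* and 0.0633 to 0.109 for *Unc5b*.

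The other genes around the pair were taken from 6 lists with 204 gene symbols, *Adamts1* and *Unc5b* included. Some genes are entered under both an older and a newer symbol, so the lists hold fewer than 204 genes. The lists cover the ADAMTS family, the substrates, cofactor and inhibitors of ADAMTS1, the UNC5 and netrin pathway and other guidance molecules. They also cover angiogenic signalling and other proteins with thrombospondin type 1 repeats. All 6 are called pathway lists here, although the last of these groups genes by a shared protein domain. Besides the pair, 8 of these genes were among the 312 genes of the table. In the edgeR quasi-likelihood test 5 of the 8 were higher at P6 and 0 lower at an adjusted p under 0.05. Over all tested genes of the table, itself a selected list, 30.3% were called higher and 33.9% lower. The median log2 fold change of the 8 was 0.71. Of the 25 genes of the ADAMTS family *Adamts1* was the only one analysed here. Of the 55 symbols for angiogenic growth factor, Notch and endothelin signalling, 0 were. No level can therefore be given for VEGF, its receptors or other proteases of the ADAMTS family.

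Of the 11 genes tied to ADAMTS1 as substrates, cofactor or inhibitors, *Thbs1* and *Nid2* were in the table, and both were higher at P6. *Thbs1* encodes thrombospondin 1, a matrix protein that restrains vessel growth, is cleaved by ADAMTS1 and gave the repeats their name. It had 798, 812 and 772 TPM at P6 and 211, 189 and 153 TPM at P56, without overlap. The log2 fold change was 2.23 (SE 0.09, edgeR adjusted p = 1.10e-08). *Nid2* encodes nidogen 2, a basement membrane protein. Its level was 159, 155 and 148 TPM at P6 and 88.2, 80.7 and 70.9 TPM at P56, a log2 fold change of 1.07 (SE 0.08, edgeR adjusted p = 9.83e-07). At P6 *Thbs1* was thus above *Adamts1* in TPM in each library, and at P56 it was below it in each.

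Of the 19 genes of the UNC5 and netrin pathway, *Neo1* was in the table beside *Unc5b*. It encodes neogenin, a receptor for netrins and repulsive guidance molecules. The libraries had 45.2, 39.6 and 35.3 TPM at P6 and 36.5, 37.8 and 28.3 TPM at P56, and the ages overlapped on this scale. The log2 fold change was 0.34 (SE 0.11, edgeR adjusted p = 0.0175), and the call was lost in limma on log2(TPM + 1) (adjusted p = 0.172) and without P6 replicate 1 (adjusted p = 0.0964), in a range of 3.65e-05 to 0.194 over the alternatives. *Epha2*, an ephrin receptor, was the 1 gene of 54 other guidance molecules in the table. It gave a log2 fold change of 0.23 (SE 0.10, edgeR adjusted p = 0.0743), and the adjusted p ranged from 0.00102 to 0.523 over the alternatives. It was called higher under 5 of 15 alternatives, among them TMM (adjusted p = 0.0125), median-of-ratios size factors (0.0143) and leaving out P56 replicate 1 (0.0118).

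Among the 44 symbols listed for other proteins with thrombospondin type 1 repeats, 5 were in the table, *Thbs1* included. Of these 5 genes, 3 were higher at P6. *Wisp1*, a matricellular protein of the CCN family, had 300, 276 and 250 counts at P6 and 29, 25 and 12 at P56, a log2 fold change of 3.28 (SE 0.21, edgeR adjusted p = 2.67e-07). *Rspo3*, a secreted amplifier of WNT signalling, had 110, 62 and 64 counts at P6 and 9, 16 and 7 at P56, a log2 fold change of 2.50 (SE 0.36, edgeR adjusted p = 0.000112). The remaining CCN family genes *Cyr61* and *Ctgf* were not called, with log2 fold changes of −0.06 (edgeR adjusted p = 0.462) and −0.04 (0.759), which became 0.30 and 0.33 with equal library sizes.

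**Figure D5:**
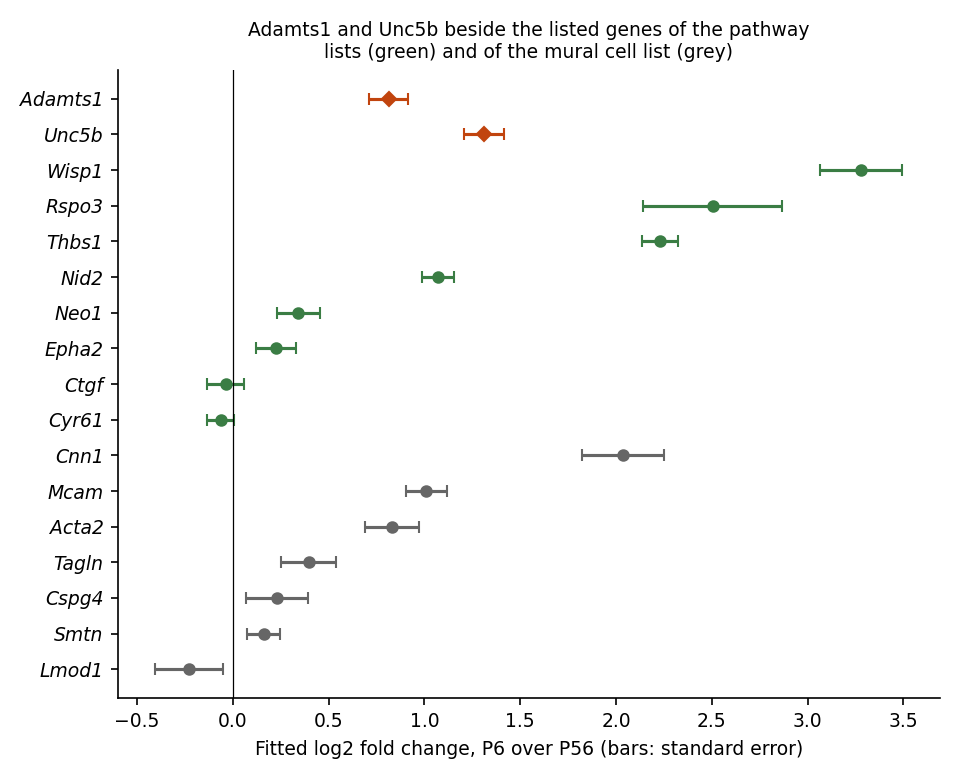
Fitted log2 fold change of P6 over P56 (horizontal, bars for the standard error). Diamonds are *Adamts1* and *Unc5b*, green marks the 8 other genes of the pathway lists and grey the 7 mural cell genes. *Wisp1*, *Rspo3*, *Thbs1* and *Nid2* lie at 1.07 or more, *Ctgf* and *Cyr61* lie near 0 and change sign with equal library sizes, as does *Lmod1*.

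The cells that carry *Adamts1* and *Unc5b* could not be traced in these libraries. None of 24 endothelial, 7 lymphatic endothelial, 20 macrophage, 15 adipocyte, 12 fibroblast and preadipocyte or 8 lymphocyte markers was among the listed genes, so the labelled cell type was not checked here. Of 15 markers of mural cells, the smooth muscle cells and pericytes of vessel walls, 7 were listed, of which 4 were higher at P6 and 0 lower by edgeR, where 30.3% of all tested genes were called higher. These were *Cnn1* (log2 fold change 2.04, adjusted p = 8.06e-06), *Mcam* (1.01, 8.09e-06), *Acta2* (0.83, 0.000356) and *Tagln* (0.40, 0.0304), while *Cspg4*, *Smtn* and *Lmod1* were not called, at 0.23, 0.16 and −0.23. The call of *Tagln* was lost in limma on log2(TPM + 1) (adjusted p = 0.133) and in edgeR without P6 replicate 1 (0.174) and without P56 replicate 2 (0.127), in a range of 4.58e-06 to 0.174 over the alternatives. *Cspg4* was called higher under 2 of 15 alternatives, without P56 replicate 3 (edgeR adjusted p = 0.000174) and with equal library sizes (0.000355), in a range of 0.000174 to 0.676. *Smtn* was called higher under 5 of 15, among them TMM (0.0303), median-of-ratios size factors (0.0303) and leaving out P56 replicate 1 (0.0397), in a range of 0.00216 to 0.755.

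The summed TPM of the mural genes was 1053 to 1439 in the P6 libraries and 776.0 to 888.1 in the P56 libraries, and their median log2 fold change was 0.40. Most of this sum was *Acta2* and *Tagln*. The part of mural cells in the levels of *Adamts1* and *Unc5b* was not tested. The defining mural markers *Myh11*, *Pdgfrb* and *Rgs5* were not analysed here. Of 11 markers of skeletal muscle, *Acta1* (−1.64, edgeR adjusted p = 9.83e-08) and *Neb* (−1.73, adjusted p = 2.67e-05) were listed and both were lower at P6, as were 33.9% of all tested genes.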

How the data were processed

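RNA was sequenced from 3 P6 and 3 P56 mouse libraries on a BGISEQ-500 instrument after oligo(dT) selection. Per the study's methods and the submitters' processing notes, the authors aligned reads with HISAT and Bowtie2, estimated expression with RSEM and compared groups with DESeq2. Tool versions and genome build were "not given in the sources used here". Deposited by the authors was a table of 312 selected genes (311 listed as mRNA) with estimated counts, TPM and FPKM per library. Its name calls them differentially expressed genes, so they may have been selected on these same libraries. Adjusted p-values and shares of called genes therefore describe this list and not all expressed genes. The deposited estimated counts are not normalized, and 23 genes had a fractional value. The deposited TPM are scaled by length to 1 total per library, and the deposited FPKM by length and depth, over all genes. A further 3 columns, with the authors' own log2 ratio of the ages and its p and q, were not used.

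Relative depth was the median ratio of count to FPKM over 196 genes with FPKM above 5 in every library. Counts, rounded to integers, entered the quasi-likelihood test of edgeR 4.0.16 under R 4.3.3 (glmQLFit, then glmQLFTest, recovered depth, no TMM, no covariates, Benjamini-Hochberg adjustment over the 310 genes whose mean count was 10 or more, adjusted p under 0.05). Each standard error is the size of the log2 fold change over the root of F. Before this, the model was run on simulated counts with exactly known depths and the same dispersion for each gene. That run did not cover error in the recovered depths or the selection of the list. *Adamts1* and *Unc5b* were part of this fit and its adjustment, but only their log2 fold changes and standard errors are given, with no p. Named are these genes, each listed gene of the pathway and marker lists (at most 4 called per list and direction), and the 5 nearest profiles of each, of which 1 is not reported here. The members, lists and tests were chosen with earlier results of these data known. Alternatives were other scalings, DESeq2 1.42.0, limma 3.58.1 on log2(TPM + 1) and log2(TPM + 0.1), other count minimums, a replicate block and leaving out each library. The counts for the mural list and the ratio of both genes were added after the data had been seen. Promoters were matched by gene symbol and ID in a RefSeq table (GRCm38.p6) and both genes matched.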

Additional observations from a re-analysis of the deposited data

How the results depend on the processing

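*Adamts1* and *Unc5b* were higher at P6 under each of the 13 alternatives used for them, with log2 fold changes of 0.69 to 1.17 and 1.19 to 1.67. For this pair the limma fits and the other count minimums were left out, and the log2 ratios of mean TPM and of mean FPKM were included. Equal library sizes, which leave the depth difference in the counts, gave the highest values, 1.17 and 1.67. They also moved the median of all tested genes to 0.34, and turned 94 genes higher and 105 lower at P6 into 148 higher and 34 lower. Relative to that median *Adamts1* stood at 0.83 and *Unc5b* at 1.33. DESeq2 called 198 genes, TMM 214 and limma on log2(TPM + 1) 183, with a median of all genes of −0.14, against 199. Leaving out 1 library gave 0.71 to 0.91 for *Adamts1*, 1.23 to 1.38 for *Unc5b*, 172 to 221 called genes, 4 to 6 pathway genes and 3 to 5 mural genes.

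Deviations of same-numbered libraries correlated at 0.09, 0.15 and 0.26 over 310 genes. The numbers were not taken as pairs, because the labels name no shared source and not all of these values were above 0.1. As a weak hint toward pairing from the data, 5 of 6 libraries correlated best with their own number, among 3 candidates each. These matches are not independent of each other, because deviations are centred within each age. With the replicate block the log2 fold changes were 0.82 and 1.32, and 213 genes were called. Among the pathway and mural genes the block added calls of *Epha2* (edgeR adjusted p = 0.0283) and *Smtn* (0.0483) and changed no other call. At depth, *Unc5b* rests on as few as 300 counts in a library, and *Wisp1* and *Rspo3* on as few as 12 and 7.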
